A study of Astyanax mexicanus with 78 samples.

Results

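The aged brains of cave and surface fish were compared across all genes of the brain count table. The 2 groups were aged Pachón cavefish, with 3 brain libraries numbered 6 to 8, and aged surface fish, with 4 brain libraries numbered 5 to 8. These 7 libraries are part of a series of 78 RNA-seq libraries of Astyanax mexicanus covering brain, gut, heart, liver and muscle at a young and an aged stage. Both groups were 7 to 8 years old, were untreated and came from aquarium stocks kept on the same light and temperature schedule. All cave fish came from the stock of a single cave, so that a difference between the groups is a difference between 2 stocks of 1 species. Sex was not used here, and the labels do not say whether each library is 1 fish.

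Astyanax mexicanus lives as an eyed surface form in rivers and as blind, pale cave forms that still interbreed with it in the laboratory. Cave forms sleep little, store fat, tolerate long fasts and have a regressed eye and altered daily rhythms, while the brain keeps the usual vertebrate regions. Inherited differences between the populations and differences in the animals' lives cannot be told apart in a comparison of adults. In bulk tissue such as brain, fewer cells of a type and less RNA per cell cannot be told apart either.

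The libraries were alike in depth. The 7 totals ran from 7093246 to 8995146 counts, 13557 to 14141 genes reached 10 counts in a library, and the most abundant gene took 1.07% to 1.79% of a library. A set of 599 genes that the brain libraries of the series held far above every other tissue took 22.1% to 22.3% of the counts in cave brains and 22.4% to 22.9% in surface brains. Gene symbols could be attached to 2080 of the 19076 gene IDs, mostly from a list of genes ordered by a larval response to ultraviolet light, so the named genes are not a random sample. The first principal component held 63.2% of the variance and separated the populations, and the second, with 12.9%, set surface brains 5 and 6 apart from surface brains 7 and 8. Where leaving out 1 of these surface pairs removed the call of a named gene or changed the count of a gene list, the value is given beside the result. Calls gained by genes that were not called over the 7 libraries are given beside the result for some genes only.

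Of 16056 genes tested with DESeq2, 2384 differed between aged cave and aged surface brain at an adjusted p under 0.05, a share of 14.8%. They divided almost evenly by direction, with 1206 genes (7.51%) higher in cave brain and 1178 (7.34%) lower. Values are normalized counts, which are counts divided by a size factor for library depth, and fold changes are given as log2 of cave over surface with the standard error (SE). The typical difference was modest. The median size among called genes was 0.80 on the log2 scale, 922 of the 2384 differed by at least 2-fold, and 279 by at least 8-fold, of which 148 were higher and 131 lower in cave brain. The edgeR quasi-likelihood test called 1776 of 14242 genes (12.5%), and 1761 genes were called by both tools. Across all tested genes the median log2 fold change was -0.00. With 1 cave library left out the DESeq2 count was 1316 without cave brain 6, 1180 without cave brain 7 and 1404 without cave brain 8.

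**Figure D1:**
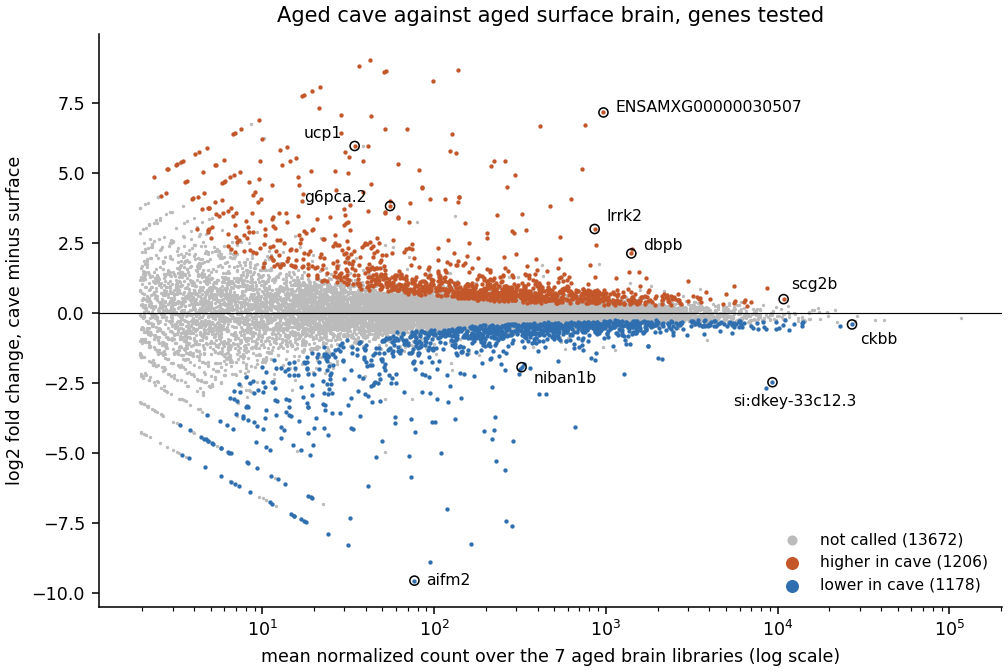
Each point is 1 of the tested genes. The x axis is the mean normalized count over the 7 aged brain libraries on a log scale, the y axis the log2 fold change of cave over surface; 1206 orange points are called higher in cave, 1178 blue points lower, and grey points are not called. Circled genes are those named in the text, from aifm2 at the bottom, with no read in cave brain, to the unnamed gene ENSAMXG00000030507 at 7.16.

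Complete separation of the libraries was common. In 2247 of the 2384 called genes (94.3%) every cave library lay on one side of every surface library. Among the 9180 genes that averaged 100 normalized counts or more, called or not, 2809 (30.6%) showed no overlap between the groups.

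The named genes with the largest decreases in cave brain came from several pathways. The rule that named them, and the largest increases, took genes with a mean of at least 100 counts over the 7 libraries and without overlap between the groups, so their separation is given as a description. The enzyme gene akr1b1.1, of the aldose reductase family that reduces sugars and aldehydes, gave 351, 298, 396 and 309 normalized counts in surface brains 5 to 8 and 57.1, 62.4 and 42.5 in cave brains 6 to 8. More than 1 ID carried this symbol, and akr1b1.1 here means ENSAMXG00000034098 only. The log2 fold change of this ID was -2.65 ± 0.21 (SE; DESeq2 adjusted p = 1.42e-34). All cave values thus lay far under the lowest surface value. The gene listed as si:dkey-33c12.3, a zebrafish clone name with no role assigned, was among the most abundant transcripts that differed. It gave 13181, 12996, 14190.1 and 17162 counts in surface brains and 2725, 2284 and 2726 in cave brains, a log2 fold change of -2.48 ± 0.13 (DESeq2 adjusted p = 7.98e-74). Again the groups were widely apart.

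The gene niban1b, the counterpart of a human protein induced by stress of the endoplasmic reticulum, was lower in cave brain, with a log2 fold change of -1.94 ± 0.25 (DESeq2 adjusted p = 4.8e-13). Surface brains gave 603, 548, 328 and 409.8 counts against 158, 106 and 105 in cave brains. Its surface libraries were spread more than its cave libraries, yet did not reach them. The gene cyp46a1.3 belongs to the family of the human brain enzyme that converts cholesterol to 24-hydroxycholesterol, the route by which the brain disposes of cholesterol. Surface brains gave 573, 642, 549 and 592 counts and cave brains 224, 257 and 271, with a log2 fold change of -1.23 ± 0.13 (DESeq2 adjusted p = 7.19e-18). The transcription factor gene pax7b, which marks dorsal midbrain in vertebrate embryos, gave 316, 426, 366 and 348 counts in surface brains and 177, 166 and 180.1 in cave brains. The cave values of pax7b were close together and below all surface values (log2 fold change -1.06 ± 0.16, DESeq2 adjusted p = 3.19e-09).

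The other named genes with large decreases were ryr1a, a calcium release channel of the endoplasmic reticulum (-1.72), slc38a4, an amino acid transporter (-1.55), SERPINB8, a protease inhibitor (-1.21), junbb, a subunit of the transcription factor AP-1 (-1.18), and dse, an epimerase that builds dermatan sulfate (-1.08). For dse the groups nearly met, because surface brain 7 gave 165 counts and cave brain 8 gave 162. For junbb they met closely as well, with 783 in surface brain 8 against 774 in cave brain 6.

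Among the genes with a symbol, a mean of at least 100 counts and a call in both tools, the largest increase in cave brain was in lrrk2, which encodes a large kinase with a GTPase domain whose human counterpart is mutated in inherited Parkinson's disease. Surface brains gave 242, 306, 146 and 167 normalized counts and cave brains 1832, 1381 and 1944. Every cave library held several times the count of the highest surface library, and the log2 fold change was 2.99 ± 0.24 (DESeq2 adjusted p = 2.21e-33). Next under the same limits was dbpb, a transcription factor of the PAR bZIP family through which the circadian clock drives its output genes. It gave 629.5, 752, 505 and 418 counts in surface brains and 2442, 2772 and 2316 in cave brains (log2 fold change 2.12 ± 0.19, DESeq2 adjusted p = 2.05e-26). It was followed by ak4, an adenylate kinase of the mitochondrial matrix, which interconverts adenine and guanine nucleotides. Its surface values of 242, 264, 247 and 232 and its cave values of 879.7, 947 and 990.2 were both tight, and it was higher in cave brain by 1.93 ± 0.12 (DESeq2 adjusted p = 8.75e-55).

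Nucleotide synthesis was also represented by gmps, the enzyme that makes GMP. Surface brains gave 315, 299, 271 and 234 counts and cave brains 908, 936 and 728 (log2 fold change 1.61 ± 0.16, DESeq2 adjusted p = 2.85e-22). The lowest aged cave value was more than any aged surface value. On the scale of all young and aged brain libraries, gmps gave 319, 365, 333 and 332 counts in young surface brains. Young cave brains gave 1184, 1222, 327 and 369 on that scale. The young groups thus overlapped, and gmps was not high in every cave library. The remaining large increases were in rock2b, a kinase that acts on the cytoskeleton (1.88), MUSK, a receptor kinase known from the neuromuscular junction (1.82), cmbl, a hydrolase (1.46), ptbp3, an RNA-binding regulator of splicing (1.34), abcc4, an efflux transporter (1.33), and jam3b, an adhesion molecule of cell junctions (1.31). Of these, MUSK was spread in surface brain, at 68.5, 62.1, 16.1 and 82.2 counts against 196, 232 and 177.

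**Figure D2:**
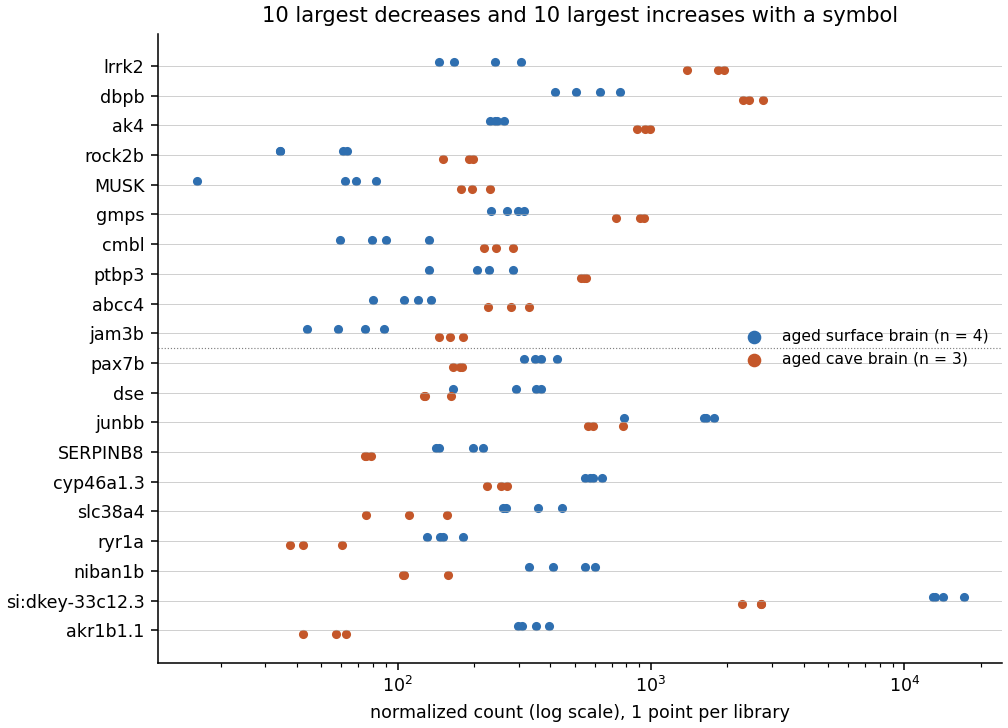
Normalized counts (x axis, log scale) of the 10 genes with the largest increase (upper block) and the 10 with the largest decrease (lower block) in aged cave brain, among genes with a symbol, a mean of at least 100 counts, a call in both tools and no overlap; each point is 1 library, blue for the 4 aged surface brains and orange for the 3 aged cave brains. In the upper block all orange points lie to the right of all blue points of the same gene, and in the lower block to the left, with dse and junbb nearly touching.

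Many of the largest differences were in genes without a symbol. The ID ENSAMXG00000030507 gave 15.4, 16.2, 20.7 and 10.3 counts in surface brains and 2148, 2193 and 2366 in cave brains, a log2 fold change of 7.16 ± 0.22 (DESeq2 adjusted p = 2.68e-229). The ID ENSAMXG00000038047 gave 8.56, 52.5, 3.45 and 2.28 counts against 1315, 1259.5 and 2647, a log2 fold change of 6.70 ± 1.12. In the other direction, ENSAMXG00000040526 gave 1270.2, 277, 287 and 135 counts in surface brains and 1.08, 2.68 and 3.69 in cave brains. The ID ENSAMXG00000036866 had 251, 48.7, 578 and 261 counts in surface brains and 3 reads in all in the cave brains, a ratio of 283 with a counting interval of 96.7 to 1377 (95%, exact, counting error only). In these aged brains the 4 genes were high in one group and at a small fraction of that level in the other. In young surface brains, on the scale of all 15 brain libraries, ENSAMXG00000038047 was at 284 to 513 counts and ENSAMXG00000030507 at 18.1 to 205, so both were expressed in surface fish. On the same scale ENSAMXG00000040526 gave 3.34, 9.57, 539 and 413 counts in young surface brains 1 to 4, so it was low in some surface libraries.

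Genes near absent in either group were counted among called genes without overlap between the groups. Of these, 6 had at most 3 counts in each cave library and a mean of at least 50 in surface brain. Another 14 showed the reverse. The limit of no overlap left out genes such as ENSAMXG00000033547. It gave 323, 3.82, 334 and 0 counts in surface brains and 1.08, 0 and 0 in cave brains. Only 3 of these 20 near-absent genes carried a symbol. One is aifm2, which encodes a membrane oxidoreductase that protects cells from lipid peroxidation and ferroptosis. Surface brains gave 110.5, 171, 139 and 116 counts, and no read was counted in any of the 3 cave brains. Taking 3 counts over the group as the floor, aifm2 was at least 140-fold lower in cave brain. The reads were mapped to the genome of a surface fish, so a cave gene copy that is lost, one changed in sequence and one that is silent cannot be told apart.

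The other 2 were higher in cave brain. The mitochondrial uncoupling protein gene ucp1, known for heat production in mammalian brown fat, gave 0.856, 1.91, 1.15 and 1.14 counts in surface brains and 88.4, 112 and 36 in cave brains (log2 fold change 5.96 ± 0.79, DESeq2 adjusted p = 6.91e-12). On the scale of all 15 brain libraries, ucp1 gave 0.557, 48.5, 1.21 and 35.5 counts in young surface brains and 41.3 to 116 in young cave brains. It was thus expressed in some surface libraries. The gene hhla2b.1, related to the B7 family of immune checkpoint ligands, had 3 reads in all in the surface brains and a ratio of 318 (counting interval 109 to 1548). Its cave libraries did not resemble each other, with 5.39 counts in cave brain 6 against 344 and 336 in the others. A split of this kind was also seen inside the surface group for elovl8b, a fatty acid elongase known from fish. Surface brains gave 169, 161, 171 and 3.42 counts and cave brains 0, 2.68 and 3.69, so surface brain 8 lay among the cave values (log2 fold change -5.87 ± 1.39, DESeq2 adjusted p = 5.59e-04). In young brains, on the scale of all 15 brain libraries, elovl8b was high in 1 of 4 surface libraries, at 147 counts, and in 2 of 4 cave libraries, at 103 and 110 counts, and at 5.90 or less in the rest. For elovl8b high and low libraries thus occurred in both populations.

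The most abundant called genes with a symbol differed by far less. The brain creatine kinase gene ckbb, which buffers cellular energy, gave 28334, 26011, 31986 and 35014 counts in surface brains and 22768, 23696 and 21771 in cave brains (log2 fold change -0.42 ± 0.12, DESeq2 adjusted p = 0.00861). The microtubule regulator stmn1b was also lower, at -0.38 ± 0.09 (DESeq2 adjusted p = 4.08e-04), as were the ribosomal protein gene rpl3, at -0.47 ± 0.12, and the heat shock transcription factor gene hsf2, at -0.34 ± 0.13. The secretogranin gene scg2b, a component of neuropeptide secretory granules, went the other way. It gave 8511, 8973, 9769 and 9689 counts in surface brains and 13767, 13426 and 11676 in cave brains, with no overlap (0.49 ± 0.10, DESeq2 adjusted p = 8.67e-05). The calls of ckbb, rpl3 and hsf2 did not outlast every choice of libraries. That of ckbb was lost without any 1 of the cave brains (adjusted p = 0.0704, 0.0531 and 0.0888 without cave brain 6, 7 or 8), and that of rpl3 without cave brain 7 (adjusted p = 0.0502). That of hsf2 was lost without any of the cave brains or surface brain 7 or 8 (adjusted p from 0.113 to 0.231), without surface brains 7 and 8 (adjusted p = 0.168) and in edgeR (adjusted p = 0.0731).

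Genes of glucose handling and insulin signalling, which set blood sugar and growth, were called in 1 direction. Of 16 members tested, 5 were higher and 0 lower, and the median log2 fold change over the list was 0.40, against -0.00 over all genes, of which 14.8% were called. The largest was g6pca.2, a catalytic subunit of glucose-6-phosphatase, the last step of glucose release. Surface brains gave 7.71, 6.68, 3.45 and 16 counts and cave brains 106, 147 and 101 (log2 fold change 3.81 ± 0.41, DESeq2 adjusted p = 4.06e-18). The groups were far apart, at low counts in surface brain. Among ligands and their carriers, igf2b, an insulin-like growth factor, gave 296, 317, 324 and 363 counts against 516, 589.6 and 530.2 (0.75 ± 0.13, DESeq2 adjusted p = 9e-07). The binding protein gene igfbp5b gave 429, 412, 378 and 435 against 659.8, 686 and 804 (0.79 ± 0.13, DESeq2 adjusted p = 6.2e-08). Neither gene had a cave value within the surface range, and 94.3% of all called genes had no overlap.

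At the receptor, igf1rb gave 215, 232, 171 and 221 counts in surface brains and 264, 364 and 316 in cave brains (0.58 ± 0.18, DESeq2 adjusted p = 0.012). Its paralog igf1ra had a log2 fold change of 0.50 and was not called (DESeq2 adjusted p = 0.17), nor was the insulin receptor gene insrb, at 0.12 (adjusted p = 0.834). Inside the cell, foxo1b, a transcription factor that insulin holds out of the nucleus, gave 36, 44.9, 65.5 and 42.2 counts in surface brains and 113, 82.1 and 134 in cave brains (1.23 ± 0.30, DESeq2 adjusted p = 7.45e-04). The relay genes irs1 (0.47), akt1 (0.21) and akt2 (0.33) were not called, with adjusted p of 0.0995, 0.305 and 0.0995. The growth hormone receptor gene ghrb, which was not on the list and was named after its values were seen, gave 129, 148, 141 and 154 counts against 226, 249 and 236 (0.73 ± 0.16, DESeq2 adjusted p = 1.32e-04). Its groups did not overlap. The call of igf1rb was lost without surface brain 7, cave brain 7 or cave brain 8 (adjusted p = 0.0608, 0.2 and 0.0877), and without surface brains 7 and 8 (adjusted p = 0.0873). Without surface brains 7 and 8 the list had 5 higher and 0 lower members, igf1rb not among them, and without surface brains 5 and 6 it had 8 higher and 2 lower.

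**Figure D3:**
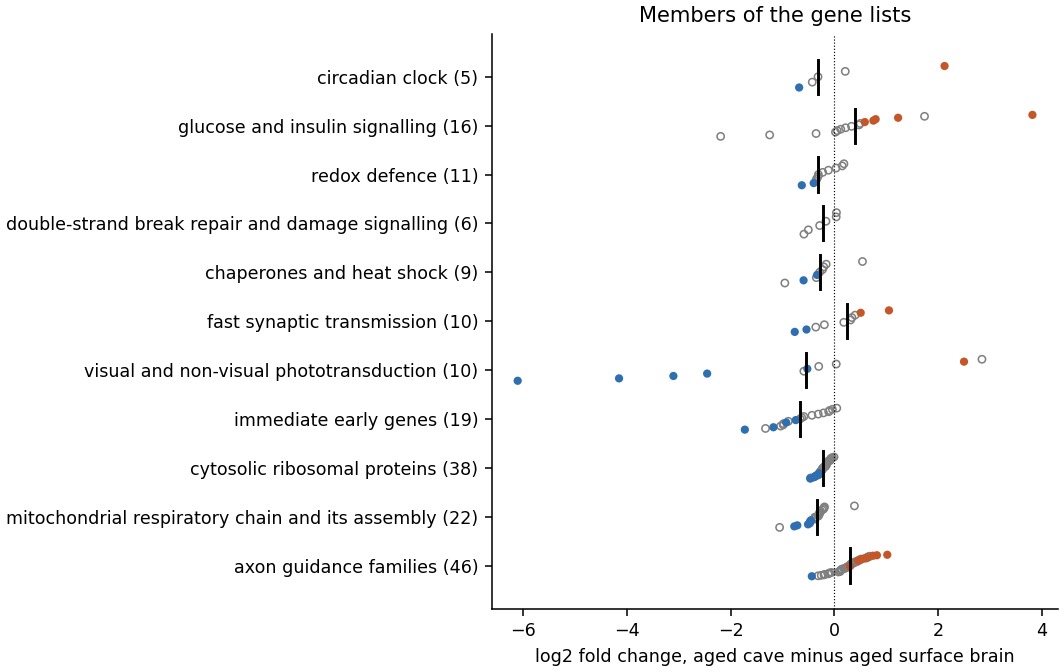
Log2 fold changes (x axis, aged cave minus aged surface brain) of the tested members of 11 gene lists (y axis, number tested in brackets); filled points were called, orange for higher and blue for lower in cave, open grey points were not called, the black bar is the list's median and the dotted line the median of all tested genes at -0.00. Called members of the glucose and insulin list and 8 of the 9 called members of the axon guidance list lie to the right, and the called redox, chaperone, immediate early, ribosomal and respiratory chain members to the left.

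The circadian clock is a loop of transcription factors and their repressors that runs in nearly every cell, with output factors such as dbpb. Of 5 clock genes tested, 1 was higher and 1 lower in aged cave brain, against 14.8% called over all genes, and the median was -0.32. The output factor dbpb, described above, had the largest change. On the scale of all 15 brain libraries, dbpb gave 1685, 1039, 264 and 215 counts in young surface brains 1 to 4. Young cave brains gave 1428 to 2845, so the young groups overlapped and dbpb varied widely among young surface libraries. The repressor bhlhe40 was lower at -0.68 ± 0.22 (DESeq2 adjusted p = 0.0176), with 3059, 3141, 2025 and 1616 counts in surface brains and 1419, 1520.0 and 1666 in cave brains. Cave brain 8 lay within the surface range of bhlhe40, and its call was lost in edgeR (adjusted p = 0.0714) and without surface brain 5 or 6 or cave brain 6 or 7 (adjusted p from 0.0535 to 0.108). The light-responsive repressor per2 gave 1635, 1834, 1729.5 and 889 counts against 1215, 1163 and 1015 and was not called (-0.43, DESeq2 adjusted p = 0.189), but was called lower without surface brains 7 and 8 (-0.62, adjusted p = 1.97e-05). The related cry1a had a log2 fold change of -0.32 and was not called (adjusted p = 0.0773), but was called lower without surface brains 5 and 6 (adjusted p = 0.049) and in the fit of all 4 brain groups (adjusted p = 0.0353). The bhlhe40 call was lost without surface brains 5 and 6 (adjusted p = 0.197). The list had 2 higher and 2 lower members without surface brains 7 and 8. All tissue was collected in a single window early in the light period, so a difference in level and a shift in timing cannot be told apart.

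DNA repair genes carrying a symbol were few. Ultraviolet damage in DNA is removed by photolyase, which reverses it using light, or by nucleotide excision repair, in which DDB2 recognises the lesion. The gene ddb2 was lower in aged cave brain, with 343, 362, 410.0 and 382 counts in surface brains and 271, 255 and 256 in cave brains (-0.52 ± 0.13, DESeq2 adjusted p = 0.002). All cave values lay below the surface values, and the call was lost without cave brain 7 (adjusted p = 0.0675) and in the fit of all 4 brain groups (adjusted p = 0.0819). The photolyase gene cpdp gave 255, 277, 225 and 219 counts against 247, 292 and 299 and was not called (0.19 ± 0.16, DESeq2 adjusted p = 0.462). These were the 2 tested members of that list, with a median of -0.16.

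Of 6 genes of double-strand break repair and damage signalling, 0 were called by DESeq2 or by edgeR, against 14.8% of all genes in DESeq2. Of the 6, 1 had an unadjusted p under 0.05 in DESeq2, and their median was -0.22. The Fanconi anaemia gene fancc came nearest, at -0.59 ± 0.22 (DESeq2 adjusted p = 0.0516), with 133, 148, 169 and 123 counts in surface brains and 83, 84.7 and 117 in cave brains. The cell cycle inhibitor cdkn1a and the damage-responsive gadd45ba followed the split inside the surface group. For cdkn1a surface brains gave 9.42, 38.2, 187 and 119 counts and cave brains 85.2, 86.5 and 64.7, and for gadd45ba they gave 698, 624, 2677 and 1095 against 955, 853 and 886. Cave values of both genes fell between the surface pairs. Without surface brains 7 and 8 both were called higher in cave brain (cdkn1a 1.73, adjusted p = 0.0122, and gadd45ba 0.43, adjusted p = 0.00757), whereas over all 7 libraries the log2 fold changes were -0.16 and -0.50 and neither was called. Without surface brains 5 and 6 the list had 0 higher and 1 lower member.

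A further list joined genes tied to cavefish traits with genes named in this study's own ultraviolet and DNA repair results. Its members were examined whether or not they changed. Of 31 genes listed, 9 carried a symbol, and of these only pax6a and insrb were not named in those results. Listed genes such as oca2, mc1r, mc4r and hcrt carried no symbol and could not be followed. Of 7 tested, ddb2 was the 1 called gene, lower, against 14.8% of all genes, and the list's median was -0.19. Without surface brains 5 and 6 the list had 1 higher and 2 lower members. The eye development gene pax6a gave 452, 681, 585 and 502 counts in surface brains and 553, 449 and 460.0 in cave brains (-0.19, DESeq2 adjusted p = 0.518). Not called either were ube2al, named as a ubiquitin-conjugating enzyme (-0.52, adjusted p = 0.221), the AP-1 gene fosl1a (-0.66, adjusted p = 0.557) and the glucose sensor gck (1.74, adjusted p = 0.24), the last at under 10 counts in every library. The genes spic and hspb9 had at most 1 read in any of the 7 aged brain libraries and were not tested in this comparison.

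Redox defence genes remove peroxides and superoxide. Of 11 tested, 0 were higher and 2 lower in aged cave brain, a share near the 14.8% called over all genes, with a median of -0.31. The glutathione transferase gene GSTP1 gave 1094, 855, 1140.4 and 1312 counts in surface brains and 791, 694 and 647 in cave brains (-0.63 ± 0.16, DESeq2 adjusted p = 0.00176). The glutathione peroxidase gene gpx4b, which like aifm2 acts against lipid peroxidation, gave 1559, 1437, 1756 and 1890.2 against 1284, 1297 and 1189.8 (-0.40 ± 0.13, DESeq2 adjusted p = 0.0145). Both had cave values below all surface values, and 94.3% of all called genes had no overlap. The superoxide dismutase gene sod1 (-0.12, adjusted p = 0.571) and catalase gene cat (0.03, adjusted p = 0.939) were not called. The gpx4b call was lost without surface brain 7 or any cave brain (adjusted p from 0.0663 to 0.133) and without surface brains 7 and 8 (adjusted p = 0.0925). The count moved with the surface pairs, from 1 higher and 1 lower without surface brains 7 and 8 to 0 higher and 7 lower without surface brains 5 and 6.

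Chaperones fold other proteins and rise under heat and proteotoxic stress. Of 9 tested, 0 were higher and 2 lower, against 14.8% called over all genes, with a median of -0.29, and edgeR called 0 while 3 had an unadjusted p under 0.05 in DESeq2. The list had 0 higher and 1 lower member without surface brains 7 and 8 (median -0.16), and 1 higher and 5 lower without surface brains 5 and 6 (median -0.40). The collagen chaperone serpinh1b gave 703, 409, 441 and 554 counts in surface brains and 350.4, 334 and 362 in cave brains (-0.60 ± 0.20, DESeq2 adjusted p = 0.023). Its groups did not overlap, but the call was lost in edgeR (adjusted p = 0.0617) and without surface brain 5 or any cave brain (adjusted p from 0.0767 to 0.14), and in the fit of all 4 brain groups (adjusted p = 0.375). The abundant constitutive chaperones hspa8 (-0.21, adjusted p = 0.354) and hsp90ab1 (-0.23, adjusted p = 0.21) were not called.

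Genes of fast synaptic transmission, the receptors and transporters of glutamate and GABA, changed in both directions. Of 10 tested, 2 were higher and 2 lower, against 14.8% called over all genes, with a median of 0.25. The list had 2 higher and 1 lower members without surface brains 7 and 8 (median 0.086), and 5 higher and 2 lower without surface brains 5 and 6 (median 0.33). Higher were the GABA-A receptor subunits gabrb4, with 132, 106, 62 and 76.5 counts in surface brains and 187, 234 and 167 in cave brains (1.05 ± 0.27, DESeq2 adjusted p = 0.00216), and gabra5 (0.50 ± 0.16, adjusted p = 0.0165). Lower were the kainate receptor subunit grik5, with 505, 645, 536 and 380.1 counts against 342, 272 and 299 (-0.77 ± 0.19, DESeq2 adjusted p = 0.00123), and gabrr1, a GABA receptor subunit of the rho class (-0.54 ± 0.18, adjusted p = 0.0204). None of the 4 had overlapping groups, as was so for 94.3% of all called genes. The gabrb4 call was lost without cave brain 7 (adjusted p = 0.0659), that of gabra5 without surface brain 7 or any cave brain (adjusted p from 0.06 to 0.115), and that of gabrr1 without surface brain 6 or 8 or cave brain 6 or 7 (adjusted p from 0.0548 to 0.195), or without surface brains 7 and 8 (adjusted p = 0.101).

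The next 4 lists were drawn from gene families after the values had been seen. Axon guidance families, made up of ephrin receptors, plexins, semaphorins, teneurins and their relatives, steer growing axons and persist at adult synapses. Of 46 members tested, 8 were higher and 1 lower in aged cave brain, against 7.51% and 7.34% of all genes, 37 log2 fold changes were above 0, and the median was 0.30. The GTPase regulator srgap2 gave 213, 201, 126 and 119.9 counts in surface brains and 288, 293 and 297 in cave brains (0.82 ± 0.23, DESeq2 adjusted p = 0.00535). The teneurin tenm4 gave 1103, 963, 809.6 and 902 against 1279.7, 1273 and 1335 (0.45 ± 0.13, DESeq2 adjusted p = 0.00568). Both had narrow cave groups above all surface values. The plexin plxna4 (0.56) and the ephrin receptor epha7 (0.75) were also higher, epha7 not in edgeR (adjusted p = 0.0646). Calls were lost for srgap2 and plxna4 without cave brain 7 (adjusted p = 0.0504 and 0.109), and for tenm4 and epha7 without any 1 of the cave brains (adjusted p from 0.0513 to 0.175), and for epha7 also without surface brains 7 and 8 (adjusted p = 0.0855). The list had 6 higher and 2 lower members without surface brains 7 and 8, and 14 higher and 1 lower without surface brains 5 and 6.

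Cytosolic ribosomal proteins, which form the translation machinery, had log2 fold changes below 0 for all 38 genes tested over the 7 libraries, and for 23 of 38 without surface brains 7 and 8. Over the 7 libraries 0 were higher and 7 lower, against 14.8% called over all genes, and the median was -0.22. For rps9 surface brains gave 2870.1, 2674, 3148 and 3344 counts and cave brains 2165, 2235 and 2425 (-0.40 ± 0.11, DESeq2 adjusted p = 0.00537), and rpl9 was at -0.36 ± 0.11. The rps9 call was lost without cave brain 6 or 7 (adjusted p = 0.0922 each) and the rpl9 call without surface brain 7 or any cave brain (adjusted p from 0.056 to 0.102). The sums over the list followed the split inside the surface group, at 156010.3, 159212, 189733 and 196866 counts in surface brains 5 to 8 and 149980.7 to 157940.2 in cave brains. Surface brains 5 and 6 were thus close to the cave brains. Without surface brains 7 and 8 the list had 0 higher and 3 lower members and a median of -0.06, and without surface brains 5 and 6 it had 0 higher and 32 lower and a median of -0.36.

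The mitochondrial respiratory chain, which makes most of a neuron's ATP, behaved alike. Of 22 members of the chain and its assembly, 0 were higher and 7 lower, against 14.8% called over all genes, with a median of -0.35. The complex IV subunit cox4i1 gave 4502, 4092, 5232 and 5595 counts in surface brains and 3536, 3903 and 3091 in cave brains (-0.47 ± 0.14, DESeq2 adjusted p = 0.0111), while its paralog cox4i1l was not called (0.38, adjusted p = 0.227). The complex II assembly factor sdhaf4 gave 570.4, 681, 865 and 888 counts against 414, 437 and 464 (-0.77 ± 0.18, DESeq2 adjusted p = 2.65e-04). The genes romo1 (-0.72), a small inner membrane protein, and coq9 (-0.48), needed for ubiquinone synthesis, were lower as well. In these 4 called genes every cave value was below every surface value, and 94.3% of all called genes had no overlap. The cox4i1 call was lost without cave brain 6 or 8 (adjusted p = 0.0692 and 0.122) and the coq9 call without cave brain 8 (adjusted p = 0.0659), and both without surface brains 7 and 8 (adjusted p = 0.0953 and 0.0554). The list had 1 higher and 3 lower members without surface brains 7 and 8, and 0 higher and 20 lower without surface brains 5 and 6.

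Immediate early genes are switched on within minutes by neuronal activity. Of 19 tested, 0 were higher and 4 lower in aged cave brain, against 14.8% called over all genes, 18 log2 fold changes were below 0, and the median was -0.66. The list had 0 higher and 6 lower members without surface brains 7 and 8 (median -0.38), and 0 higher and 2 lower without surface brains 5 and 6 (median -0.46). The AP-1 gene junbb gave 1766, 1617, 1642 and 783 counts in surface brains and 774, 565 and 589 in cave brains (-1.18 ± 0.25, DESeq2 adjusted p = 7.54e-05). Its partner fosab gave 1089, 575, 1096 and 249 against 295, 159.7 and 226 (-1.73 ± 0.58, DESeq2 adjusted p = 0.0234), and surface brain 8 lay among the cave brains for fosab. Also lower were ier2a (-0.93) and the activity-dependent npas4a (-0.75), the latter not in edgeR (adjusted p = 0.0861). The zinc finger genes egr1 (-0.98, adjusted p = 0.137) and egr4 (-1.33, adjusted p = 0.0576) were not called. Calls were lost without some libraries: fosab without surface brain 5 or 7 or any cave brain (adjusted p from 0.0531 to 0.176), ier2a without cave brain 7 or 8 (0.0799 and 0.083) and npas4a without surface brain 6, 7 or 8 or cave brain 7 (0.0959 to 0.221). Without surface brains 5 and 6 the calls of junbb, fosab and ier2a were lost (adjusted p = 0.101, 0.145 and 0.0952), and without surface brains 7 and 8 that of npas4a (adjusted p = 0.465).

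Genes of light detection included some large decreases, at very low counts. Of 10 tested, 1 was higher and 5 lower, against 7.51% and 7.34% of all genes, with a median of -0.56. The edgeR test called 1 higher and 4 lower of 7 tested. The list had 1 higher and 3 lower members without either surface pair. The red cone opsin opn1lw1 gave 50.5, 72.6, 4.59 and 98.2 counts in surface brains and 2.16, 1.78 and 5.54 in cave brains (-4.15 ± 0.83, DESeq2 adjusted p = 2.53e-05), and surface brain 7 lay within the cave range. The opn1lw1 call was lost in the fit of all 4 brain groups (adjusted p = 0.0986). The blue cone opsin opn1sw2 gave 14.6, 12.4, 0 and 21.7 against no read in any cave brain, at least 12.9-fold lower over the groups. The arrestin sagb (-2.45) and rbp4l (-3.10), a retinol-binding gene, were also low in aged cave brain. In young surface brains 1 to 4, on the scale of all 15 brain libraries, opn1lw1 gave 1.67, 0, 448 and 0 counts. There opn1sw2 gave 1.11, 0, 106 and 1.18. Young cave brains gave 1.18 to 6.26 for opn1lw1 and 0 to 5.01 for opn1sw2, so the young groups overlapped. Photoreceptor markers, 10 genes with a symbol, summed to 43.6 to 171 normalized counts in aged surface brains and 17.8 to 27.0 in aged cave brains. On the scale of all 15 brain libraries a single young surface library reached 3599 against 182 or less in every other. The other young surface sums were 182, 26.0 and 57.9, and those of young cave brains ran from 16.1 to 52.9. The part of pineal or retinal tissue in these differences was not tested.

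The opsin-like rgra, which binds retinal outside the photoreceptors, was the abundant gene of the light list. It gave 939.6, 1323, 1398 and 1180.3 counts in surface brains and 788, 838 and 897 in cave brains, without overlap (-0.52 ± 0.15, DESeq2 adjusted p = 0.00821). Its call was lost without cave brain 6 or 7 (adjusted p = 0.0901 and 0.0732) and without surface brains 7 and 8 (adjusted p = 0.0645). The cone channel subunit cngb3.2 went the other way, with 17.1, 14.3, 6.89 and 25.1 counts in surface brains and 105, 74.9 and 89.6 in cave brains (2.50 ± 0.38, DESeq2 adjusted p = 3.81e-09). The calls of opn1sw2, sagb and rbp4l were lost without 1 library in several ways, the highest adjusted p being 0.371 for opn1sw2 without surface brain 8, 0.115 for sagb without surface brain 7 and 0.21 for rbp4l without surface brain 6. They were also lost without a surface pair, for sagb without surface brains 7 and 8 (adjusted p = 0.272), and for opn1sw2 and rbp4l without surface brains 5 and 6 (adjusted p = 0.348 and 0.23). In the fit of all 4 brain groups opn1sw2 and sagb were not called (adjusted p = 0.0877 and 0.167).

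Markers of tissue around the brain were also followed. The neuron genes elavl4 (0.23, DESeq2 adjusted p = 0.352) and rbfox3a (-0.30, adjusted p = 0.226) were not called. Without surface brains 7 and 8 rbfox3a was called lower (-0.49, adjusted p = 0.00721), and without surface brains 5 and 6 elavl4 was called higher (0.44, adjusted p = 0.0132). Among 3 fibroblast and meningeal genes, the matrix gene dcn was higher in cave brain, with 685, 605, 829 and 745 counts in surface brains and 1259, 1041 and 948 in cave brains (0.60 ± 0.15, DESeq2 adjusted p = 0.00182), and fn1a, which encodes fibronectin, was lower (-1.34 ± 0.37, adjusted p = 0.00391). The dcn call was lost without cave brain 6 (adjusted p = 0.0571) and the fn1a call without cave brain 7 (adjusted p = 0.0538) or without surface brains 7 and 8 (adjusted p = 0.07). The muscle actin gene acta1b gave 20.6, 40.1, 42.5 and 46.8 counts against 8.62, 4.46 and 11.1 (-2.22 ± 0.51, DESeq2 adjusted p = 3.34e-04), and its call was lost without surface brains 7 and 8 (adjusted p = 0.05003). Muscle-specific genes as a set of 63 took 0.0410% to 0.0447% of the cave and 0.0441% to 0.0539% of the surface libraries. No member was called among 2 endothelial and mural, 1 ependymal, 2 monoamine, 2 complement and interferon and 1 chromosome segregation genes tested by DESeq2 or by edgeR, against 14.8% of all genes in DESeq2. Of these genes 1, of the monoamine list, had an unadjusted p under 0.05 in DESeq2. A monoamine gene was called lower without surface brains 5 and 6.

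Young brains asked whether the same differences were present in other fish, since the 8 young libraries, 4 for each population and aged about 1 year, shared none with the aged comparison. In young brain 3011 of 16388 genes tested (18.4%) differed between cave and surface. Of the 2345 aged calls that also had an adjusted p in young brain, 2001 (85.3%) had the same sign there, against 61.3% of the 13504 genes not called in aged brain. A total of 990 (42.2% of these aged calls and 32.9% of the young calls) were called in the same direction in both, and 24 were called in opposite directions. Across these genes, which are not independent replicates, Pearson's r of the 2 sets of log2 fold changes was 0.81 and Spearman's rho 0.79. Of the 884 aged differences of at least 2-fold 52.7% were called in the same direction in young brain, and of the 1461 smaller ones 35.9%.

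Examples of genes that differed at both ages were akr1b1.1, with a young log2 fold change of -2.54 beside -2.65 in aged brain, si:dkey-33c12.3 (-2.29 beside -2.48), cyp46a1.3 (-1.17 beside -1.23), ak4 (1.75 beside 1.93), lrrk2 (1.96 beside 2.99), g6pca.2 (2.42 beside 3.81) and aifm2 (-8.65 beside -9.57). The young difference of dbpb was 1.35 ± 0.70 and was not called (DESeq2 adjusted p = 0.181), nor was that of gmps (adjusted p = 0.0715). In the lists, igfbp5b was called in young brain too, at 0.95, while igf2b (0.21), igf1rb (-0.07) and foxo1b (0.48) were not, with adjusted p of 0.621, 0.776 and 0.0983. The young difference of ddb2 was 0.16 ± 0.25 (adjusted p = 0.742).

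**Figure D4:**
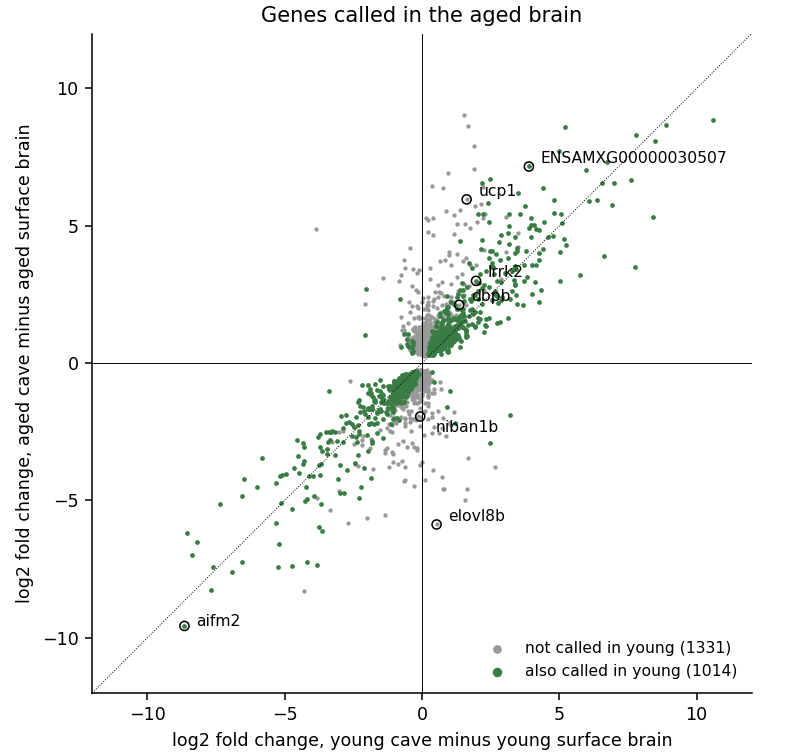
Log2 fold changes of cave over surface in young brain (x axis) and aged brain (y axis) for the 2345 genes called in aged brain; green points (1014) were called at both ages and grey points (1331) in aged brain only, and the dotted line marks equal values. Green points follow the line from aifm2 at the lower left, and the grey points gather along the vertical axis, where niban1b and ucp1 are circled.

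Whether the population difference itself changed with age was tested as an interaction over all 15 brain libraries. It was called for 663 of 14485 genes tested (4.58%) by DESeq2, and for 232 by edgeR. The DESeq2 count was 440 without young surface brain 4, 392 without young cave brain 3, 391 without aged cave brain 7 and 384 without aged cave brain 8. Among the 2284 aged calls with a value, 328 (14.4%) had a called interaction, but the same aged libraries entered both tests. In 311 of the 328 the difference was larger in aged brain, and in 207 the young difference had the opposite sign. The 328 were picked as aged calls, which favours a larger aged difference. These counts therefore do not show in which direction the population difference moves with age.

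The clearest case was niban1b. On the scale of the 15 libraries its mean was 159 ± 14.9 (SD, n = 4) in young surface, 151 ± 13.7 (n = 4) in young cave, 490 ± 131 (n = 4) in aged surface and 128 ± 31.8 (n = 3) in aged cave brain. Aged surface brain thus stood above the other groups, and the aged fold change minus the young one was -1.88 (DESeq2 adjusted p = 6.03e-08, edgeR 0.00451). The activity gene junbb also had its highest mean in aged surface and its lowest in aged cave brain, with means of 758 in young surface, 885 in young cave, 1508 in aged surface and 666 in aged cave brain (interaction -1.40, DESeq2 adjusted p = 0.00239, edgeR 0.0494). For fosab the means were 199, 294, 781 and 235 in that order (interaction -2.30, DESeq2 adjusted p = 0.0144), but edgeR did not call it (adjusted p = 0.0537). The median log2 fold change of the 19 immediate early genes was 0.23 in young and -0.66 in aged brain. In young brain 4 of them were called higher and 0 lower in cave fish, against 18.4% of all genes called. This list was drawn up after the values had been seen, so its medians are a description and not a test.

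The remaining genes named by the interaction, and shank1, which was added after its values were seen, had positive interactions. The postsynaptic scaffold shank2b had means of 1160 in young surface, 908 in young cave, 1016 in aged surface and 1334 in aged cave brain, so that its difference changed sign between ages (-0.36 in young and 0.40 in aged brain, interaction 0.75, DESeq2 adjusted p = 1.72e-05, edgeR 0.0116). Its paralog shank1 went from -0.47 in young to 0.57 in aged brain (interaction 1.04, DESeq2 adjusted p = 0.00104). The aged calls of shank2b and shank1 were lost without some libraries, with a highest adjusted p of 0.134 and 0.163, both without cave brain 8, and both were lost without surface brains 7 and 8 (adjusted p = 0.0508 and 0.127). The semaphorin sema6e, a guidance ligand, had means of 390, 411, 255 and 516 in the same order of groups (interaction 0.93, DESeq2 adjusted p = 7.11e-05). In aged brain alone its counts were 269, 264, 243 and 204 in surface against 534, 458 and 503 in cave libraries. SEC14L1, of a family of lipid transfer proteins, had means of 858, 809, 591 and 965 (interaction 0.79, DESeq2 adjusted p = 4.08e-05), and ca16b of 908, 820, 743 and 987 (interaction 0.56, DESeq2 adjusted p = 1.10e-04). For these 3 genes the young groups were close and aged surface brain was lowest. The aged call of ca16b was lost without cave brain 7 or 8 (adjusted p = 0.0683 and 0.0541).

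**Figure D5:**
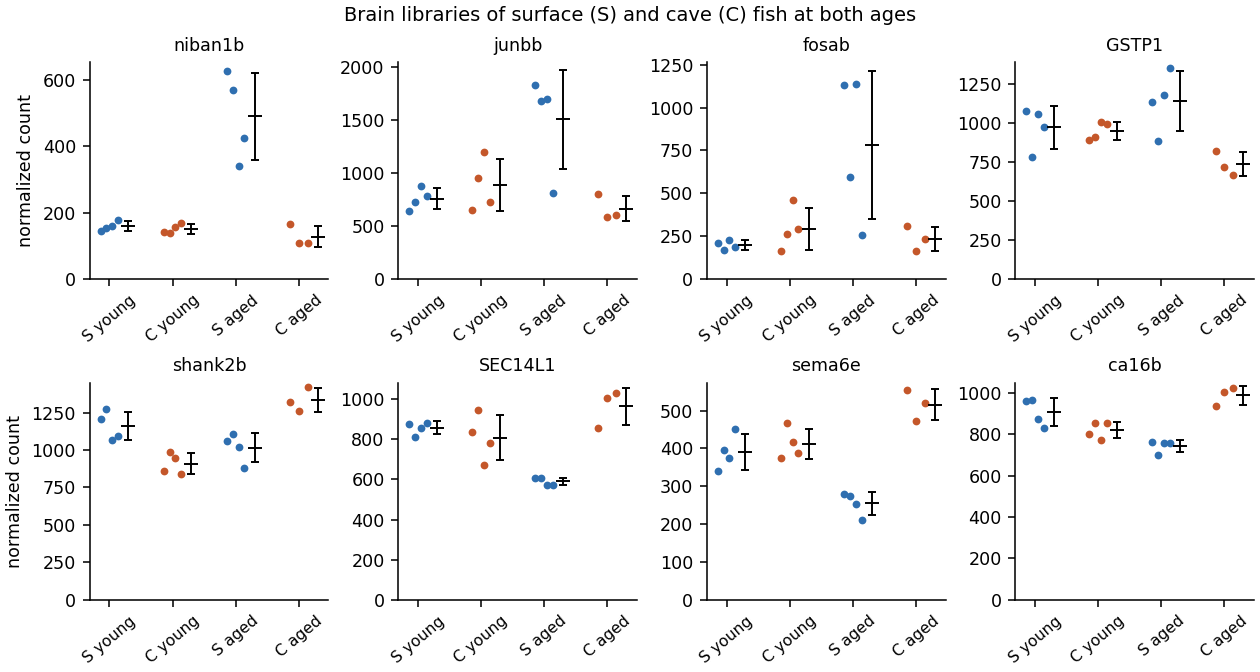
Normalized counts (y axes, on the scale of all 15 brain libraries, from 0) of 8 genes in young surface, young cave, aged surface and aged cave brain; points are libraries (4, 4, 4 and 3) and bars the mean ± SD. In niban1b, junbb and fosab aged surface brain stands above the other groups, with 1 low library for junbb and fosab, and in shank2b, SEC14L1, sema6e and ca16b aged cave brain stands highest.

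Other aged tissues of the same populations asked how far the brain differences extended through the body. The labels do not say whether these tissues came from the same fish as the brains, and the aged cave hearts carry conflicting age labels and were grouped by their age attribute. Fewer genes were called in the other tissues than in brain, at 852 of 14414 gut (5.91%), 1137 of 14933 heart (7.61%), 563 of 12519 liver (4.5%) and 556 of 13936 muscle genes (3.99%). Of the brain calls that had an adjusted p in the other tissue, the share called in the same direction was 12.1% for gut, 17.5% for heart, 9.27% for liver and 11.6% for muscle, and 14 to 21 genes per tissue were called in the opposite direction. These counts depended on single libraries and on the tool. Gut had 545, 1285 and 506 calls without surface gut 6, surface gut 7 or cave gut 7, heart 727 without cave heart 7, and liver 329 and 368 without cave liver 6 or 7. Muscle had 362 and 899 calls without surface muscle 6 or 8 and 361 without cave muscle 6 or 7. The edgeR test called 180 gut, 286 heart, 141 liver and 151 muscle genes. At least 1 other tissue shared the call in the same direction for 599 genes (25.1%), and the remaining 1785 brain calls were shared with none. A brain call without an adjusted p in a tissue, or called there in the opposite direction, counted as not shared with it. Only 1813 of the 2384 brain calls had an adjusted p in liver. The same shares among genes not called in brain were not computed, so these counts are a description. Among the 279 brain differences of at least 8-fold, 146 were shared.

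A core of 64 genes was called in the same direction in all 5 aged tissues, 38 higher and 26 lower in cave fish. Among those with a symbol were aifm2, akr1b1.1, niban1b and serpinh1b, all lower in cave fish, and dbpb, cngb3.2 and il20ra, all higher. The clock output gene dbpb had log2 fold changes of 2.12 in brain and of 1.57, 2.28, 2.21 and 2.19 in gut, heart, liver and muscle. For niban1b in the same order they were -1.94, -3.37, -1.63, -3.88 and -1.62. The cytokine receptor subunit il20ra gave 0.856, 2.86, 2.3 and 0 counts in surface brains and 37.7, 36.6 and 34.2 in cave brains, a brain log2 fold change of 4.58 ± 0.74. The vitamin D hydroxylase gene cyp2r1 was shared by 3 of the 4 other tissues, with a brain log2 fold change of 3.25 ± 0.47. Genes such as lrrk2, ak4, gmps and cyp46a1.3 were called in brain and in none of the other 4 tissues. Some came near a DESeq2 call in the brain direction. These were lrrk2 in heart (1.11, adjusted p = 0.0538), gmps in gut (0.77, adjusted p = 0.0818) and cyp46a1.3 in heart (-0.72, adjusted p = 0.0818). Others went the other way, such as gmps in heart (-0.52, adjusted p = 0.390). A missing call thus does not show that a difference is limited to brain.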

How the data were processed

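Brain tissue was dissected early in the light period, flash frozen and extracted with TRIzol, and poly-A RNA was sequenced. The authors mapped the reads to the Astyanax_mexicanus genome of a surface fish with STAR and deposited raw counts per gene, with no normalization. The STAR version, the strand setting and the handling of reads shared by near-identical genes are not given in the sources used here, so paralogs, overlapping and antisense genes are uncertain. Cave reads that differ from the surface assembly may map less well.

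From these counts, libraries were grouped by population and age as the labels give them. Each cave to surface comparison was fitted on its own 2 groups with DESeq2 1.42.0 (Wald test, Benjamini-Hochberg adjustment over all genes tested, threshold 0.05, R 4.3.3), the tool of the study's methods, with the edgeR 4.0.16 quasi-likelihood test beside it. The population by age interaction used all 15 brain libraries. The p-values measure the spread between these libraries. Depth was 7093246 to 8995146 counts per library. Counting intervals and the floor of 3 counts, used where a group had no read, cover counting error only.

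On data simulated from these libraries, with 200 of 19076 genes changed, DESeq2 recovered 93.5% of changed genes in the aged comparison and 13.0% of its calls were unchanged genes, while edgeR recovered 90% with 4.26%. For the interaction DESeq2 recovered 89% with 13.6%, and edgeR 85.5% with 6.04%. The planted changes were log2 sizes of 1, 2 or 4, in genes with a mean of at least 50 counts. At size 1 recovery in the aged comparison was 83.6% for DESeq2 and 73.1% for edgeR. The median size of the real calls was 0.80 and 14.8% of genes were called, so the simulation does not give the recovery of most reported differences.

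The genes named were the 10 largest changes each way with a symbol, a mean of at least 100 normalized counts, a call in both tools and no overlap, the 2 largest each way without a symbol, up to 4 called members of each list with the smallest adjusted p, the 5 called genes with the smallest interaction p and the 6 most abundant called genes. Added to these were all measured members of the list of cavefish trait genes and of genes from this study's ultraviolet and DNA repair results. Further genes and 4 lists were added after their values were seen, among them aifm2, ucp1, elovl8b, hhla2b.1, cyp2r1, il20ra, ghrb, shank1, acta1b, dcn and fn1a. The members and lists were chosen with earlier results of these data known. Symbols came from annotation columns of the study's supplementary sheets, whose values were not used. No member of the lists for base excision and mismatch repair, sleep and feeding neuropeptides, crystallins and the mitochondrial genome carried a symbol, nor any marker of oligodendrocytes, radial glia, microglia, lymphocytes or erythrocytes. The pituitary and liver markers with a symbol, 1 each, were at under 5 counts in every library and not tested. Alternatives were TMM scaling, other filters, a stricter null of 1.5-fold, a fit of all 4 brain groups, a replicate block, leaving out each library and, added after seeing the data, leaving out each surface pair.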

Additional observations from a re-analysis of the deposited data

Results flagged for a closer look

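In the aged surface brain 6 genes had 1 library far from the other 3, by Dixon's criterion at 95%, which chance meets in about 1 in 20 groups, and 100 named genes were checked. These were junbb at 783 normalized counts in surface brain 8, ENSAMXG00000040526 at 1270.2 in surface brain 5, ENSAMXG00000038047 at 52.5 in surface brain 6, ca16b at 673 in surface brain 6, fosl1a at 126 in surface brain 7 and elovl8b at 3.42 in surface brain 8. The elovl8b value was among those of the cave brains, where the gene gave 0, 2.68 and 3.69.

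For 19 named genes the cave to surface difference was itself different between aged and young brain in DESeq2's interaction test, given here as the aged log2 fold change minus the young one. It was negative for niban1b (-1.88), SERPINB8 (-0.94), junbb (-1.40), GSTP1 (-0.60), fancc (-0.78), fosab (-2.30), ier2a (-1.15), coq9 (-0.47) and rps9 (-0.39). It was positive for abcc4 (1.43), ptbp3 (0.81), ENSAMXG00000038047 (4.22), ENSAMXG00000030507 (3.27), shank2b (0.75), SEC14L1 (0.79), sema6e (0.93), ca16b (0.56), igf1rb (0.65) and shank1 (1.04). The edgeR test did not call the interaction of SERPINB8, GSTP1, fancc, fosab, ier2a, coq9, rps9, abcc4, ptbp3 and igf1rb, with adjusted p from 0.0537 for fosab to 0.113 for rps9. For ENSAMXG00000038047 young surface brains held 284 to 513 counts against 8.91, 54.6 and 3.58 in aged surface brains 5 to 7, while young cave brains held 1737 to 2274. Over all genes tested the interaction was called for 663 of 14485 (4.58%). Most of the 19 were aged calls, some were named for a small interaction adjusted p, and others were added after their values were seen. Their number follows in part from how they were chosen and is a description.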

How the results depend on the processing

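The count of 2384 genes in aged brain stayed within 1.5 times under edgeR (1776), TMM scaling (2396), other filters and the 4-group fit (3408), and moved to 340 against a null of 1.5-fold. Leaving out 1 library gave 1180 to 2301 calls in aged brain, 2208 to 2688 in young brain, 384 to 893 for the interaction, 506 to 1285 in gut, 727 to 1592 in heart, 329 to 641 in liver and 361 to 899 in muscle. Leaving out surface brains 7 and 8 gave 1880 calls, and leaving out 5 and 6 gave 3508. The interaction count of 663 moved to 232 in edgeR and 158 in edgeR without a filter, and edgeR moved gut from 852 to 180, heart from 1137 to 286, liver from 563 to 141 and muscle from 556 to 151. The cause was not tested.

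With the replicate number as a block the count was 1497 in aged brain and 478 in gut, and it moved no other count by over 1.5 times (2106 in young brain, 571 for the interaction, 1166, 656 and 485 in heart, liver and muscle). The block fits kept only numbers present in both populations. Surface brain 5 was thus left out of the aged brain and interaction fits and cave gut 8 out of the gut fit, so the effect of the block alone was not separated. Deviations from the group means gave r = 0.05, -0.04 and 0.07 for same-numbered brain libraries. Between libraries of different number r ran from -0.13 to 0.10. Not every library correlated best with its own number. With 3 or 4 libraries in a group these deviations constrain each other, so the check cannot decide whether the numbers pair the libraries.

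Of the 77 named genes that were called, none changed direction. Calls were lost for 0 with TMM scaling, 5 in edgeR, 5 in the fit of all 4 brain groups (ddb2, opn1lw1, opn1sw2, serpinh1b and sagb), 15 with the replicate block (bhlhe40, ddb2, opn1sw2, serpinh1b, gabrr1, foxo1b, shank2b, ca16b, elovl8b, fosab, ier2a, npas4a, igf1rb, ghrb and sagb), 14 without surface brains 7 and 8, 6 without surface brains 5 and 6, 49 against a null of 1.5-fold and up to 27 when 1 library was left out (cave brain 7). Some genes given above as not called had an adjusted p under 0.05 in some other setting, so they are not stable negatives. Besides those already described, these were ube2al, igf1ra, insrb, akt2, fancc, hspa8, hsp90ab1, egr1, egr4 and cox4i1l. Uncalled genes whose log2 fold change turned sign did so without surface libraries. Leaving out 1 library moved insrb between -0.037 and 0.40, fosl1a between -1.06 and 0.44, sesn2 between -0.0034 and 0.099, cdkn1a between -0.54 and 0.51, gadd45ba between -0.73 and 0.16 and cat between -0.10 and 0.14. Without surface brains 7 and 8 the sign turned for insrb (-0.27), ube2al (0.036), fosl1a (0.71), cdkn1a (1.73), gadd45ba (0.43), sod1 (0.012) and cat (-0.011), and without surface brains 5 and 6 for sesn2 (-0.0039).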
